A study of Mus musculus with 4 samples.

Results

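The Slit ligands (Slit1, Slit2 and Slit3) and the Robo receptors (Robo1, Robo2, Robo3 and Robo4) were followed across the cell types of the embryonic mouse nose, in controls and in mutants of the Hippo pathway effectors Yap and Taz. They were the 7 genes with these symbols among the 32285 genes of the deposited tables, and they were read in every cell that had 500 or more detected genes and drew no more than 10% of its transcript counts from mitochondrial genes. Those limits kept 13739 of 15863 cell barcodes. Noses were taken whole at embryonic day 14.5, dissociated, frozen and later thawed, and mRNA was captured from its 3′ end in single droplets with the 10x Genomics chemistry, giving 2 control and 2 mutant libraries. By the design text the controls were yap flox/flox;taz flox/flox. The mutants were, by the same text, Sox10cre;yap flox/WT;taz flox/flox, so they carried floxed Taz on both alleles and floxed Yap on one. The sample labels instead give the controls the genotype C57Bl/6J and the mutants Tg(Sox10-cre)1Wdr with Yapflox and Tazflox on C57Bl/6J, so whether the controls carried floxed alleles is not settled by the sources. Cre was driven by Sox10, a gene of the migrating neural crest, so recombination is aimed at crest-derived cells and their glia and not at the whole nose. The labels speak of 2 noses per genotype but tie no library to a nose. P-values therefore rest on the spread between these libraries, which may be technical. The main test, edgeR, pools that spread in part over genes. A gene's own spread between libraries can thus be wider than its p-value reflects.

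Slits are large secreted proteins that bind Robo receptors on growing axons and migrating cells and usually repel them. Heparan sulfate on the cell surface holds ligand and receptor together, and the receptor then acts on the actin skeleton through adaptors such as the srGAP proteins. In the nose, the family is best known for sorting olfactory and vomeronasal axons on their way to the olfactory bulb, a path on which glial ensheathing cells accompany them. Robo4 is the family member of blood vessels, and mammalian Robo3 does not bind Slits with high affinity but responds to Nell2.

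The 4 libraries held 2474 to 4195 retained cells and 19767873 to 35331450 unique molecular identifiers (UMIs, one per captured transcript) in those cells, with a median of 5282 to 8549 UMIs per cell. Levels are given as CPM, the usual scaling of counts to a common total: the UMIs of a gene summed over the cells of a class in a library, relative to all UMIs of that class. There were 22 barcodes that occurred in more than 1 library. Yap1 was at 64.98 and 65.16 CPM in controls, against 56.4 and 56.0 CPM in mutants over all cells, and Wwtr1, which encodes TAZ, at 118 and 145 against 123 and 132 CPM. A 3′ assay does not read the floxed exons, so neither value measures recombination.

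Cells were put into classes by markers, with at least 4 detected markers of a list, so each class name stands for cells that look like that type. The mesenchyme, the loose connective tissue of the face, which is largely of neural crest origin, held 10384 cells. Glia held 118 cells (40 and 26 in the controls, 32 and 20 in the mutants), of which 117 had a UMI of Fabp7 and 107 of Sox10. Neurons held 106 cells, split as 38, 11, 30 and 27 over control 1, control 2, mutant 1 and mutant 2. Tubb3 was seen in 99 of them and Stmn2 in 97, while Gnrh1, the hormone gene of the migrating GnRH-1 neurons, and Tfap2e, a vomeronasal factor, were seen in 0. Control 2 stood apart among the neurons: 5 of its 11 cells lay in cluster 7, a cluster of low depth (median 2082 UMIs over all its cells) that held 6, 1 and 1 neurons of control 1, mutant 1 and mutant 2. Epithelium (1239 cells), endothelium (228 cells) and macrophages (243 cells) were used for comparison. Free RNA in the droplets can give UMIs in any class, and its part in the macrophage readings was not tested. Whether macrophages express these genes was not tested either, so their readings are not a floor.

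Slit2 and Slit3 are host genes of the same microRNA, which is why its sequence is shown here beside the sites in the family that carry its letters. Slit2 lies on the plus strand of chromosome 5 from 47983138 to 48307733 (GRCm38) and holds Mir218-1 in an intron, at chr5:48223966-48223986. Slit3 lies on the plus strand of chromosome 11 from 35121224 to 35708507 and holds Mir218-2 in an intron, at chr11:35616840-35616860. Gm20475 overlaps Slit2 and Gm12122 overlaps Slit3 on the same strand, so reads from the shared parts may have been lost or split between them. Both hairpins give the same mature RNA of 21 bases in RefSeq (GRCm38.p6), in which capitals mark the seed, bases 2 to 8.
mmu-miR-218-5p: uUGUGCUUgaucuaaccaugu
The letters that pair with the seed, AAGCACA read on the transcript strand, occurred in the longest annotated 3′ UTR of Slit2 (2 matches), Robo1 (1 match), Robo2 (2 matches) and Robo3 (1 match). In the following stretches of 23 bases, capitals mark the match.
Slit2 site 1: actagcagAAGCACAtctacaag
Slit2 site 2: tattagcaAAGCACAtaaattaa
Robo1 site: ggttttaaAAGCACAatcactaa
Robo2 site 1: ttggtgatAAGCACAaatctcta
Robo2 site 2: gcagacccAAGCACAgcttcttt
Robo3 site: actcactgAAGCACActgtctac
The Robo1 site and the first Robo2 site were followed by an A. Slit1, Slit3 and Robo4 held no match in that window. Of 21007 genes with a 3′ UTR, 13.78% held the match, and among UTRs of like length the share was 29.2% for Slit2, 17.73% for Robo1, 31.44% for Robo2 and 3.46% for Robo3. The microRNA itself was not measured here, and a match is only a stretch of letters.

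Slit2 transcripts came mainly from the mesenchyme. Its level there was 270.2 and 272 CPM in controls, against 319 and 284 CPM in mutants, a mean of 286 ± 22.6 CPM (SD, n = 4 libraries). The neurons held 165 and 345 against 136 and 163 CPM, and the epithelium 195 and 125 against 244 and 229 CPM. Endothelial cells lay far lower, at 22.2 to 33.7 CPM, and glia at 12.9 and 21.8 against 26.8 and 41.3 CPM from 26 UMIs in all. Macrophages read 2.13 to 18.02 CPM, so the glial range overlapped that of macrophages and the endothelial libraries lay just above it. The order of the means was mesenchyme, osteoblasts (247 ± 75.8, 66 cells), neurons (202 ± 96.3), epithelium (198 ± 52.8), chondrocytes (95.6 ± 65.5), mural cells of the vessel wall (69.7 ± 46.7), endothelium and glia. Each class overlapped its neighbour in this order within 1 SD, so only distant pairs, such as mesenchyme and glia, stood apart. Osteoblasts held 36, 3, 9 and 18 cells in control 1, control 2, mutant 1 and mutant 2. Their means for every member thus rest on few cells. In single cells, 47.6 to 57.5% of mesenchymal cells had a Slit2 UMI, against 2.38 to 4.55% of macrophages. The median depth was 5100.5 to 8289 UMIs in mesenchymal cells and 7520.0 to 10314 UMIs in macrophages of the 4 libraries, so the lower share in macrophages did not come with lower depth. With each cell thinned to 2000 UMIs, the mesenchymal shares were 29.9 and 28.5% in controls, against 31.6 and 30.2% in the mutants.

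Slit3 was the ligand of mesenchyme, osteoblasts and glia. The mesenchyme held 390.1 and 422 CPM in controls, against 444 and 412 CPM in mutants (417 ± 22.2, SD, n = 4). Glia held 298 and 362 against 340.3 and 406 CPM (352 ± 44.8), from 385 UMIs. The ranges of these classes met, since mutant 2 of the glia lay above control 1 of the mesenchyme. Osteoblasts, which form bone from the same mesenchyme, held 509.5 ± 40.1 CPM, and chondrocytes 135 ± 46.8 CPM. Slit3 was low in the remaining large classes: 12.1 to 17.5 CPM in the epithelium, 12.7 to 51.7 CPM in the endothelium and 18.6, 44.4 and 25.8 CPM in the neurons of control 1, mutant 1 and mutant 2. The neurons of control 2 read 356 CPM from 32 UMIs in 5 of 11 cells. In the other libraries the neuronal reads rested on 2, 2 and 1 cells. Control 2 was therefore the only library in which more than 2 neurons carried Slit3, and it was also the library with the fewest neurons.

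Slit1 was close to the limit of detection. This gene, on the minus strand of chromosome 19 from 41600257 to 41743665, gave 154 UMIs in all retained cells. Of these, 97 were in the mesenchyme, at 0.553 to 2.78 CPM. The neurons held only 24, yet this was 34.8 CPM in control 1, 0 in control 2, 14.03 CPM in mutant 1 and 7.74 CPM in mutant 2. Glia held 0 UMIs in each library. Endothelial cells, chondrocytes and osteoblasts also held 0 UMIs, while macrophages read 2.84 to 11.5 CPM from 13 UMIs, more than the mesenchyme as a whole. Within the mesenchyme the UMIs were uneven: cluster 15 read 12.2 CPM in control 2 and 13.5 CPM in mutant 1, from 9 and 28 UMIs, but 1.14 CPM in control 1 and 0 in mutant 2.

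**Figure D1:**
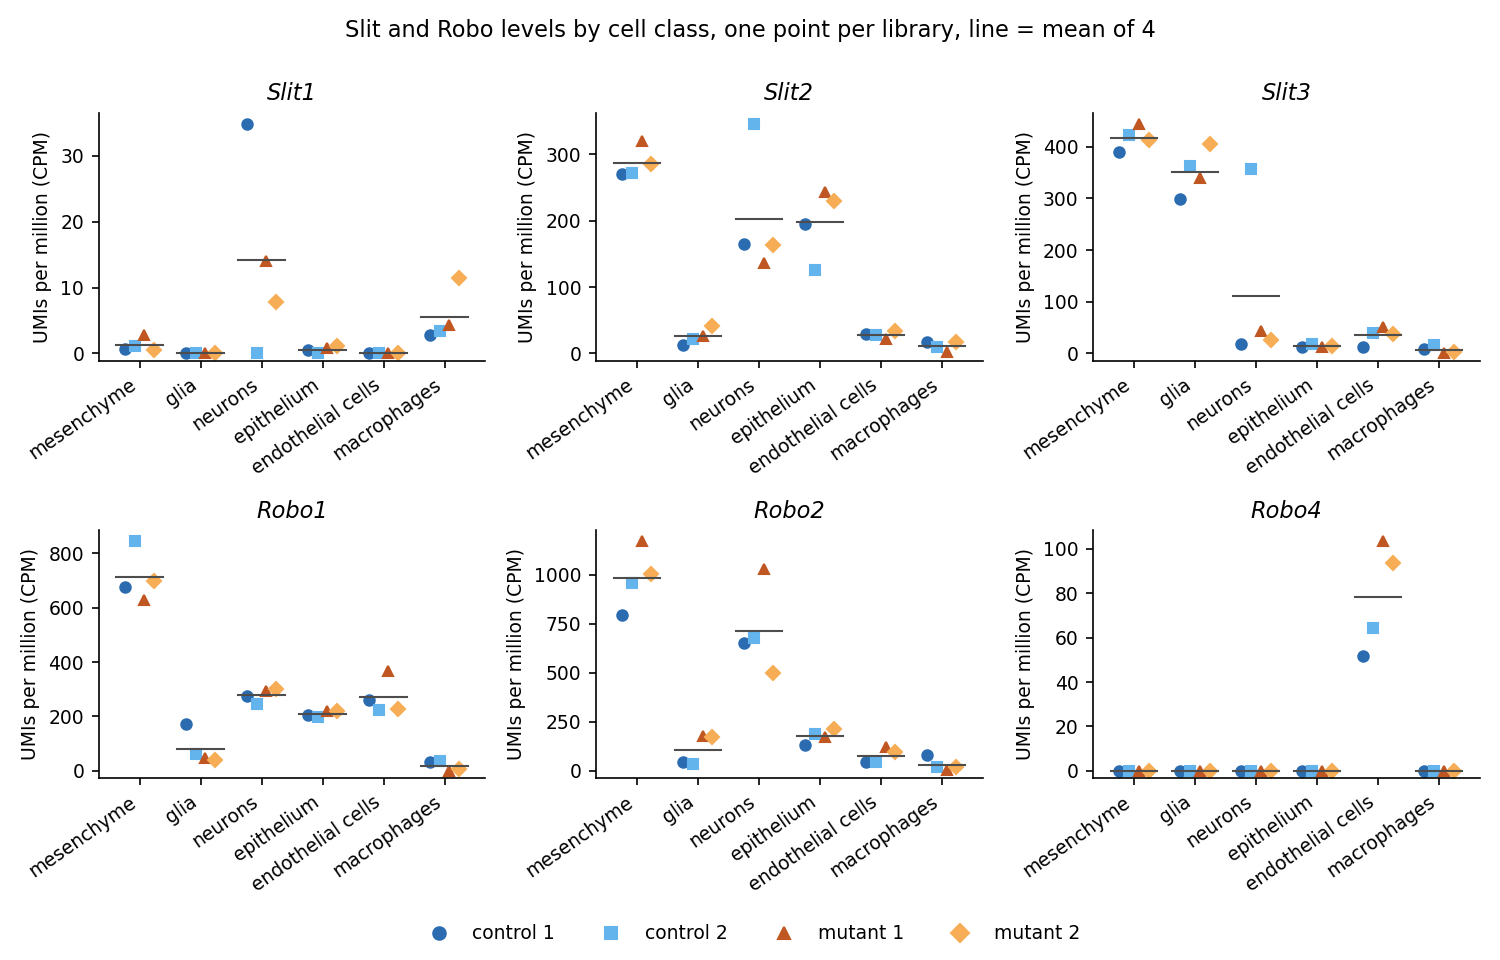
Level of Slit1, Slit2, Slit3, Robo1, Robo2 and Robo4 (vertical axis, CPM) in 6 cell classes, with one point per library and a line at the mean of the 4 libraries. Slit2, Slit3, Robo1 and Robo2 have their highest mean in mesenchyme, Robo4 stands out in endothelial cells, and Slit1 is at 0 in glia and endothelial cells but not in macrophages.

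Robo1, a receptor on the plus strand of chromosome 16 from 72308306 to 73046095, was found in every large class. The mesenchyme held 678 and 843 CPM in controls, against 627 and 699 CPM in mutants (712 ± 92.6, SD, n = 4). Neurons held 274 and 245 against 292 and 299 CPM (278 ± 24.3), endothelial cells 261 and 225 against 366 and 226 CPM (269.6 ± 66.6) and epithelium 204 and 198 against 219 and 221 CPM (210 ± 11.5). Neurons and endothelium did not differ beyond their spread, and all 4 epithelial libraries lay below the lowest of both. Glia read 172 CPM in control 1 but 61.1, 48.2 and 41.3 CPM in the others. Of the 67 UMIs of control 1, 47 sat in 1 cell. Without the highest cell of each library the glial values were 53.4 and 50.8 against 38.8 and 21.9 CPM, while macrophages read 0 to 36.3 CPM. Chondrocytes held 365 ± 66.0 CPM, mural cells 154 ± 51.7 CPM and osteoblasts 133 ± 86.7 CPM, so among all classes only mesenchyme stood clear of the others.

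Robo2, on the minus strand of chromosome 16 from 73891839 to 74411825, lies 845.7 kb from Robo1. Its level was 793 and 955 CPM in control mesenchyme and 1169 and 1002 CPM in mutant mesenchyme (979.8 ± 154, SD, n = 4). Neurons held 652 and 679 against 1029 and 498 CPM (714 ± 224), so that 3 of 4 neuronal libraries lay below all of the mesenchyme. Among neurons, 78.9, 54.5, 90.0 and 96.3% of cells had a Robo2 UMI in control 1, control 2, mutant 1 and mutant 2, the highest share of any member in every library but control 2. Epithelium held 133 to 213 CPM (176 ± 33.3) and endothelium 42.5 to 123 CPM. Macrophages read 2.13 to 81.0 CPM, with a UMI in 1.27 to 7.58% of cells. Osteoblasts held 846 ± 213 CPM and chondrocytes 329 ± 109 CPM, while mural cells held 23.9 ± 13.1 CPM and melanocytes 0 UMIs. The highest osteoblast value, 1156 CPM in control 2, came from 3 cells. Mesenchyme, osteoblasts and neurons overlapped in their spread, and all stood above the epithelium.

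Robo4 was an endothelial gene in these noses. The endothelial cells held 278 of all 301 Robo4 UMIs (92.36%), at 51.8 and 64.6 CPM in controls, against 103 and 93.8 CPM in mutants. The mesenchyme, with many times more cells, held 2, and glia, neurons and epithelium held 0. Per UMI of the class, the ratio of endothelium to mesenchyme was 2905, with an exact 95% interval of 797 to 24105 that covers counting error only. Robo4 lies on the plus strand of chromosome 9 from 37401897 to 37415115, and its promoter is shown because no other member was so restricted. The 300 bases at chr9:37401722-37402021 (GRCm38.p6, plus strand, from 250 before to 50 after the RefSeq start) have capitals at AGGAAG, a form of the ETS core.
Robo4 promoter: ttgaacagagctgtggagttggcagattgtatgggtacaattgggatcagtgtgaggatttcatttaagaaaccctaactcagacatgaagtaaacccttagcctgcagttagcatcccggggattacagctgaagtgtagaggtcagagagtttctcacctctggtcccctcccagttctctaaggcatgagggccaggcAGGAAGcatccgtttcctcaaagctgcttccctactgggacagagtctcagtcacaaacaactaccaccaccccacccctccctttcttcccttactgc
The match begins 49 bases before the start. AGGAAG on either strand was present in 35.35% of 32851 promoters of the same length, so its presence says little by itself.

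Robo3 was nearly undetected. The gene lies on the minus strand of the same chromosome from 37415669 to 37433246, 0.6 kb from Robo4, and gave 16 UMIs over all retained cells. Neurons held 2 of them, 1 in each mutant library. Glia held 0, which in mutant 2 allows a share of up to 15% of 20 cells with a UMI, so Robo3 in few glial cells was not detectable at this depth.

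As sources, the mesenchyme gave 79.23% of all Slit2 UMIs and 91.14% of all Slit3 UMIs, and the epithelium 12.62% of Slit2. As receivers, it gave 85.6% of Robo1 UMIs and 89.51% of Robo2 UMIs, while the neurons gave 1.195% of Robo2. Because the mesenchyme was by far the largest class, these shares follow cell numbers as well as levels. Over all retained cells, the means were 244 CPM for Slit2, 312 for Slit3, 565 for Robo1 and 745 for Robo2. The mesenchymal means of 286, 417, 712 and 980 CPM lay above these. The epithelial Slit2 mean of 198 CPM and the neuronal Robo2 mean of 714 CPM lay below. Many mesenchymal cells carried both receptors. In cells thinned to 2000 UMIs, 35.5 and 39.2% of control and 41.2 and 37.2% of mutant mesenchymal cells had UMIs of Robo1 and Robo2 together. Independent detection would give 33.3, 38.2, 39.2 and 35.3%, so joint detection was slightly above it in each library. Slit2 and Slit3 were detected together in 13.5 and 14.3% of control and 15.02 and 15.2% of mutant cells, against 12.4, 12.8, 14.6 and 13.4%.

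Contrasts between classes were fitted on UMI sums with the library as a block, with edgeR's quasi-likelihood test and Benjamini-Hochberg adjustment over all genes tested. Between mesenchyme and neurons, all 5 members with enough counts passed, against 40.4% of all 15799 genes tested: 4 were higher in mesenchyme, as were 22.6% of genes, and 1 in neurons, as were 17.8%. Slit3 was higher in mesenchyme by 3.16 ± 0.27 on the log2 scale (± SE, edgeR adjusted p = 8.06e-21), and by 4.16 ± 0.24 without control 2. Here and below, the SE of an edgeR log2 value was derived from the F statistic of the test. Because that statistic pools spread over genes, the SE can be smaller than the gene's own spread between libraries. Neuronal Slit3 ran from 18.6 to 356 CPM, which its SE does not show. Robo1 was higher there by 1.65 ± 0.19 (edgeR adjusted p = 2.38e-13) and Slit2 by 0.99 ± 0.20 (edgeR adjusted p = 2.12e-05). For Robo2 the difference was the smallest, at 0.82 ± 0.18 (edgeR adjusted p = 6.29e-05). Slit1 went the other way, with a log2 difference of -3.45 ± 0.61 (edgeR adjusted p = 5.76e-07), from 24 neuronal UMIs of which control 2 held none. The epithelium list summed to 1705, 256, 1782 and 1956 CPM in the neurons of the 4 libraries and the mesenchyme list to 137, 111, 93.5 and 43.9 CPM; their part in these differences was not tested.

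Among mesenchyme, neurons and glia, the glia stood lowest for Slit2, Robo1 and Robo2. Of the 4 members tested between mesenchyme and glia, 4 passed, where 22.9% of all genes did, and all 4 were higher in mesenchyme, as were 13.9% of genes. Slit2 was higher in mesenchyme by 3.72 ± 0.22 (edgeR adjusted p = 5.34e-61), Robo1 by 3.13 ± 0.16 (1.76e-87) and Robo2 by 3.40 ± 0.15 (1.04e-112). Glial Robo2 ran from 34.9 to 179.5 CPM over the libraries, a spread that these p-values do not fully reflect. The Slit3 difference was 0.35 ± 0.13 (edgeR adjusted p = 0.0274), and it lost its call with DESeq2 (adjusted p = 0.144) and without control 1 (edgeR adjusted p = 0.202), without mutant 1 (0.209), with doublets removed (0.193) or with 1 more marker asked of each cell (0.0512). Between neurons and glia all 4 members tested passed, against 35.4% of genes (18.7% higher in neurons, 16.7% higher in glia). Neurons held more Slit2 (2.83 ± 0.33, edgeR adjusted p = 1.1e-06), Robo1 (1.70 ± 0.32, 0.000251) and Robo2 (2.79 ± 0.32, 8.79e-07). Slit3 was the exception, lower in neurons than in glia by a log2 difference of -2.67 ± 0.44 (edgeR adjusted p = 6.55e-05), or -3.65 ± 0.29 without control 2. In glia the mesenchyme list summed to 1630, 685, 1096 and 1293 CPM, so glial Slit3 was measured beside mesenchymal transcripts; their part in it was not tested.

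Endothelium and epithelium also held less Slit and Robo than mesenchyme, apart from Robo4. Against endothelium, 5 of 5 members passed where 44.5% of genes did (25.3% higher in mesenchyme, 19.3% in endothelium). Slit2 was higher in mesenchyme by 3.22 ± 0.15, Slit3 by 3.60 ± 0.19, Robo1 by 1.34 ± 0.14 and Robo2 by 3.66 ± 0.16 (edgeR adjusted p from 2.53e-13 to 1.29e-07), and Robo4 was higher in endothelium (edgeR adjusted p = 1.98e-15). Against epithelium, 4 of 5 passed where 60.2% of genes did (30.9% higher in mesenchyme). Slit3 was higher in mesenchyme by 4.94 ± 0.10, Robo2 by 2.51 ± 0.09, Robo1 by 1.77 ± 0.09 and Slit2 by only 0.57 ± 0.11 (edgeR adjusted p = 0.00135). Slit1 did not pass (0.85 ± 0.60, edgeR adjusted p = 0.244).

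Within the epithelium, Slit2 was uneven. Cluster 18, whose leading genes include Bpifa1 of the respiratory lining, held 622 and 613 CPM in controls, against 656 and 566 CPM in mutants, although control 2 gave only 11 cells. The epithelial clusters 2 and 9 held means of 129 and 37.4 CPM. Cluster 5, which mixed 182 epithelial cells with 92 of the neurons, held 201 CPM over the 3 libraries with at least 20 cells. The cells of the respiratory cluster thus carried more Slit2 per UMI in every library than the mesenchyme as a whole.

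Within the mesenchyme, the ligands and receptors marked different clusters. Cells were clustered without the 7 genes, and 15 of 18 mesenchymal clusters held at least 20 cells in every library. Robo2 was highest in cluster 14 (1850 and 2141 CPM in the controls, 2152 and 2478 CPM in mutants; mean 2155), led by Nrxn3, Ndst3, Twist2 and Pparg, and in cluster 13 (mean 2132 CPM), led by Pou3f4 and Mef2c. It was lowest in cluster 25, at 337, 263, 513 and 318 CPM, a 6.03-fold range of means over clusters. Robo1 ran the other way at that end: it was highest in cluster 25, at 1800 and 1834 against 2305 and 1914 CPM, where the leading genes included Itgbl1, Foxc1, Crym and Cldn11. Its lowest mean was 472 CPM in cluster 15, a 4.16-fold range. In cluster 25 every library held more Robo1 than any library of the other 14 mesenchymal clusters.

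Slit2 was highest in cluster 4, with Pde10a, Msx1 and Wnt5a among its leading genes (682 and 492 against 1052 and 757 CPM), followed by clusters 12 (Foxf1, Shox2, Pax9) and 16 (Pax9, Gsc), both with a mean of 493 CPM. It was lowest in the cluster with most Robo2, cluster 14, at 113 CPM, giving a 6.62-fold range. Slit3 was spread more evenly, from a mean of 307 CPM in cluster 8 to 720 CPM in cluster 15 (618 and 731 against 861 and 668 CPM), led by Epha3, Ebf3 and Osr1, a 2.35-fold range. The 4 genes therefore peaked in 4 different clusters. These levels are descriptions: the clusters were defined by expression, and no test between them was made.

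**Figure D2:**
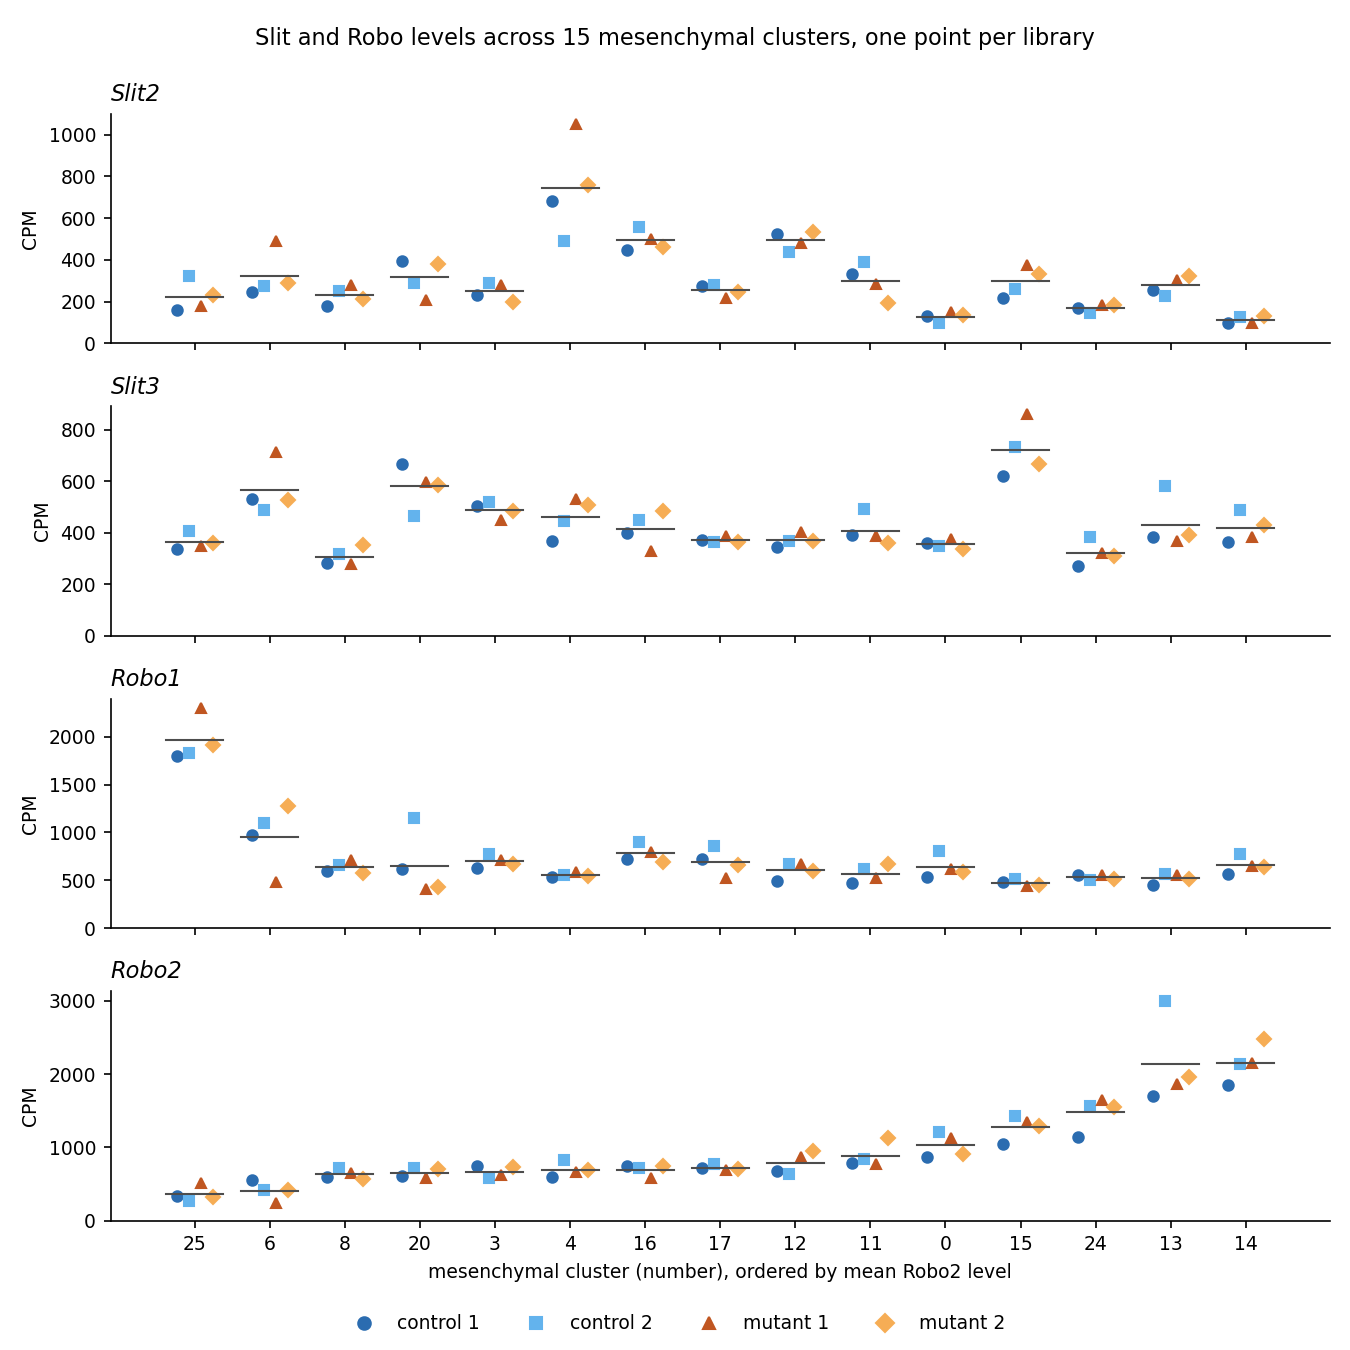
Levels of Slit2, Slit3, Robo1 and Robo2 in the mesenchymal clusters with at least 20 cells in every library, in CPM (vertical axis), with clusters ordered by mean Robo2, one point per library and a line at the mean. Slit2 peaks in cluster 4, Slit3 in cluster 15, Robo1 in cluster 25 and Robo2 in clusters 14 and 13.

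Over the 22 clusters of all kinds with at least 20 cells in every library, the genes most like each member were listed by Pearson correlation of log2(CPM + 10), among 9677 genes. The clusters share libraries and depth, so these values are descriptions. For Robo2 they were Lrig3 (r = 0.934), Gfra4 (0.912) and Tasp1 (0.904), and for Robo1 Rbfox2 (0.919), Yeats2 (0.907) and Adgrl1 (0.895). For Slit2 they were Sulf1 (0.926), Nfix (0.912) and Dipk1b (0.911), and for Slit3 Mmp16 (0.949), Mfap2 (0.938) and Poglut2 (0.933). Robo4 followed the endothelial genes Aplnr (0.999), Prnd (0.998) and Icam2 (0.991). Among these clusters it was read only in cluster 19, the endothelial one. Its correlations therefore rest on that cluster alone, and any gene confined to it would give a high value. Slit1, read from few UMIs, reached only 0.633 with Lamtor1, 0.597 with Ly86 and 0.591 with Mthfsl. Among Slit2, Slit3, Robo1 and Robo2, the pairs lay between 0.663 (Slit2 and Robo2) and 0.753 (Robo1 and Robo2). Robo4 had negative values with each of these, from -0.326 (Slit3) to -0.106 (Robo1).

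Between genotypes, no member passed the test in the mesenchyme. edgeR called 0 of 5 members and 0% of 16197 genes, with 0 members at an unadjusted p under 0.05, and DESeq2 also called 0 members. The log2 change in mutants was 0.12 ± 0.10 for Slit2, 0.04 ± 0.10 for Slit3, -0.24 ± 0.13 for Robo1 and 0.27 ± 0.13 for Robo2 (edgeR adjusted p = 0.822, 0.955, 0.700 and 0.678). For Slit1 it was 0.92 ± 0.70. Both mutant libraries lay above both controls for Slit2 and Robo2, as for 26.1% of all genes tested. In simulated sums of this size, 62.5% of genes changed 2-fold were recovered. Those genes were drawn at random from all genes tested, with a spread between libraries set by hand. The share is therefore not that of the members. Over all retained cells edgeR likewise called 0 of 6 members and 0% of 18080 genes (1 member at an unadjusted p under 0.05, Robo4), and DESeq2 called 0.

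The Robo2 value varied with the makeup of the mesenchyme. Clusters 13 and 14, the ones richest in Robo2, made up 10.1 and 9.86% of control mesenchyme and 24.02 and 15.8% of mutant mesenchyme. With equal numbers of cells drawn from each cluster in every library (1424 cells per library), Robo2 was 894 and 1049 CPM in controls, against 969.9 and 1001 CPM in mutants, and its log2 change was -0.02 ± 0.11. The libraries then overlapped. Clusters are defined by expression and the shares of captured cells differ between only 2 libraries each, so the part of the makeup in the Robo2 difference was not tested.

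**Figure D3:**
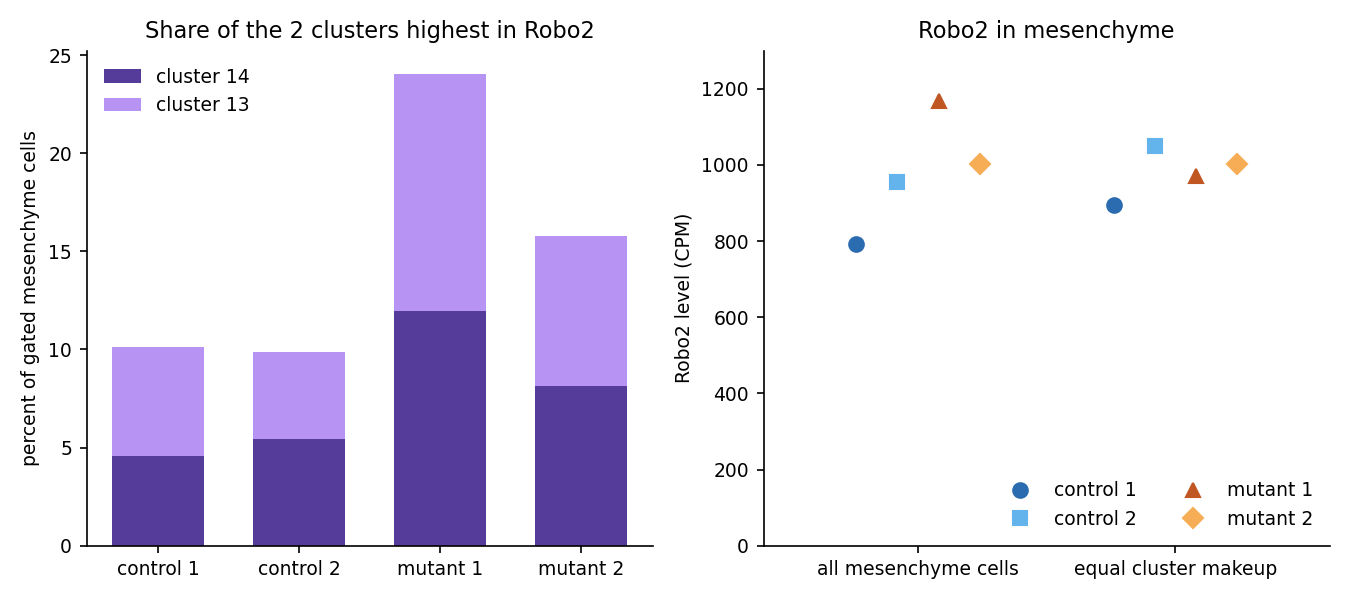
Left, stacked bars of the share of clusters 13 and 14 in the mesenchyme of each library (percent of mesenchymal cells). Right, Robo2 level of the mesenchyme (CPM), one point per library, with all cells and with equal cell numbers per cluster: the mutants lie above the controls with all cells and overlap them once the makeup is equal.

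Cluster by cluster, the sign of the genotype difference varied. Of 61 tests of members in the 15 clusters, edgeR called 0 (0.0126% of all gene and cluster pairs were called), and 7 had an unadjusted p under 0.05. The lowest adjusted p was 0.153, for Robo1 in cluster 20, at 619 and 1154 CPM in controls, against 410.0 and 429 CPM in mutants (log2 change -1.12 ± 0.24). Both mutants lay above both controls for Slit2 in 6 of 15 clusters and below in 2, where 21.3% and 14.1% of all gene and cluster pairs did so. For Slit3 these counts were 2 and 2, for Robo1 1 and 3 and for Robo2 2 and 2. Each of the 4 genes thus had clusters of both orders.

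In glia, Robo2 was higher in both mutants than in both controls without passing the test. It was 43.7 and 34.9 CPM in controls, against 179.5 and 172 CPM in mutants, from 17, 8, 67 and 25 UMIs. The groups did not overlap, as for 21.1% of genes in that direction, and the log2 change was 2.06 ± 0.32 with an unadjusted p of 5.4e-05 and an edgeR adjusted p of 0.208. Cells with a Robo2 UMI made up 20% and 23.1% of control and 37.5 and 40% of mutant glia; thinned to 2000 UMIs the shares were 12.5 and 11.5% against 25% and 20%. One cell of mutant 1 held 29 UMIs, and without the highest cell of each library the levels were 28.9 and 28.0 against 107 and 139 CPM. The call depended on the setting. Without a filter on low counts edgeR gave an adjusted p of 0.000359, without control 1 6e-04 and without control 2 0.00226. It was not called without mutant 1 (edgeR adjusted p = 0.193), without mutant 2 (0.164), with doublets removed (log2 2.32, 0.588) or with DESeq2 (log2 2.06, adjusted p = 1). The mesenchyme list summed to 1630 and 685 against 1096 and 1293 CPM in these glia, and its part in the Robo2 difference was not tested.

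The other members in glia gave less. edgeR called 0 of 3 members and 0% of 5425 genes, with 2 members at an unadjusted p under 0.05 (Robo1 and Robo2), and DESeq2 called 0. Robo1 had a log2 change of -1.47 ± 0.48 (edgeR adjusted p = 0.970), a value that rested on control 1: it was -0.47 without that library and -0.31 with doublets removed. Without control 2 it was -1.95 (edgeR adjusted p = 5.52e-04). Slit3 had 0.10 ± 0.24 (edgeR adjusted p = 0.997). With simulated sums of this size 8.5% of 2-fold and 64.0% of 4-fold changes were recovered. The changed genes were drawn at random from all genes tested, and their spread between libraries was set by hand. Most of the smaller changes were thus missed under that setting, and the shares do not give the recovery for the members.

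In neurons, with 11 cells in control 2, edgeR called 0 of 4 members and 0% of 7045 genes, 0 members had an unadjusted p under 0.05, and DESeq2 called 0. The log2 changes were 0.15 ± 0.41 for Robo2, 0.15 ± 0.38 for Robo1 and -0.72 ± 0.46 for Slit2 (edgeR adjusted p = 0.999 each). Slit3 had -2.07 ± 0.96, which turned to 0.91 without control 2 and passed the test without control 1, at -3.38. Both mutants lay above both controls for Robo1, as for 18.6% of genes, and below for Slit2, as for 13.0%. The difference between neurons and mesenchyme in their response was tested as an interaction: 0 of 5 members and 0.0823% of genes passed, with 1 member (Slit3, log2 -1.56 ± 0.54, edgeR adjusted p = 0.798) at an unadjusted p under 0.05.

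In endothelial cells edgeR called 0 of 5 members against 0.0925% of 8645 genes, with 2 members (Robo2 and Robo4) at an unadjusted p under 0.05, and DESeq2 called 0. Robo4 had a log2 change of 0.76 ± 0.24 (edgeR adjusted p = 0.534), and cells with a Robo4 UMI made up 54.0 and 48.3% of control and 80.6% and 50% of mutant endothelium. Thinned to 2000 UMIs the Robo4 shares were 9.68 and 17.9% against 17.6 and 21.3%, and they overlapped. Robo2 was at 42.5 and 47.0 CPM in controls, against 123 and 93.8 CPM in mutants, a log2 change of 1.24 ± 0.25 (edgeR adjusted p = 0.105). For both genes the groups did not overlap in CPM, as for 18.5% of genes. Robo2 passed the test without control 2 (edgeR adjusted p = 0.00517) and without mutant 2 (0.00692), and Slit3, at 0.93 ± 0.43 in the full fit, passed without control 2 at 1.71. Without the highest cell of each library Robo2 was at 30.4 and 8.10 against 53.03 and 83.1 CPM, so the groups stayed apart at lower levels. Of the 83 Robo2 UMIs of mutant 1, 50 sat in 1 cell. Cells with a Robo2 UMI made up 19.0 and 17.2% of control endothelium, against 13.9% in mutant 1 and 39% in mutant 2. Thinned to 2000 UMIs the shares were 6.45 and 3.57% against 2.94 and 16.9%, so the shares overlapped. With doublets removed the log2 change of Robo2 was 2.29 (edgeR adjusted p = 0.0564), and that of Slit3 was 2.43 (0.0734). Cluster 32, a low-depth cluster, gave 32 of the endothelial cells, all of them in mutant 2, and without them the log2 change was 1.00 for Robo2 (edgeR adjusted p = 0.656) and 0.80 for Robo4 (0.561). The mesenchyme list summed to 399, 84.1, 326 and 1545 CPM in these cells, highest in mutant 2, and its part in the Robo2 values was not tested.

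In the epithelium edgeR called 0 of 4 members and 0% of 13092 genes, with 1 member (Slit2) at an unadjusted p under 0.05, and DESeq2 called 0. Slit2 had a log2 change of 0.51 ± 0.18 (edgeR adjusted p = 0.871). Both mutants lay above both controls for Slit2 and Robo1, as for 21.9% of genes. Beside it, the respiratory epithelium list, whose cluster holds most Slit2, summed to 393 and 94.4 CPM in controls, against 1628 and 1098 CPM in mutants. That cluster, with 146 epithelial cells, held 49 of 382 and 11 of 123 epithelial cells in controls, against 43 of 332 and 43 of 402 in mutants. The part of the list and of the cluster in the Slit2 difference was not tested. Without control 1 the Slit2 change was 0.86 (edgeR adjusted p = 0.00463) and without control 2 it was 0.28 (0.622).

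**Figure D4:**
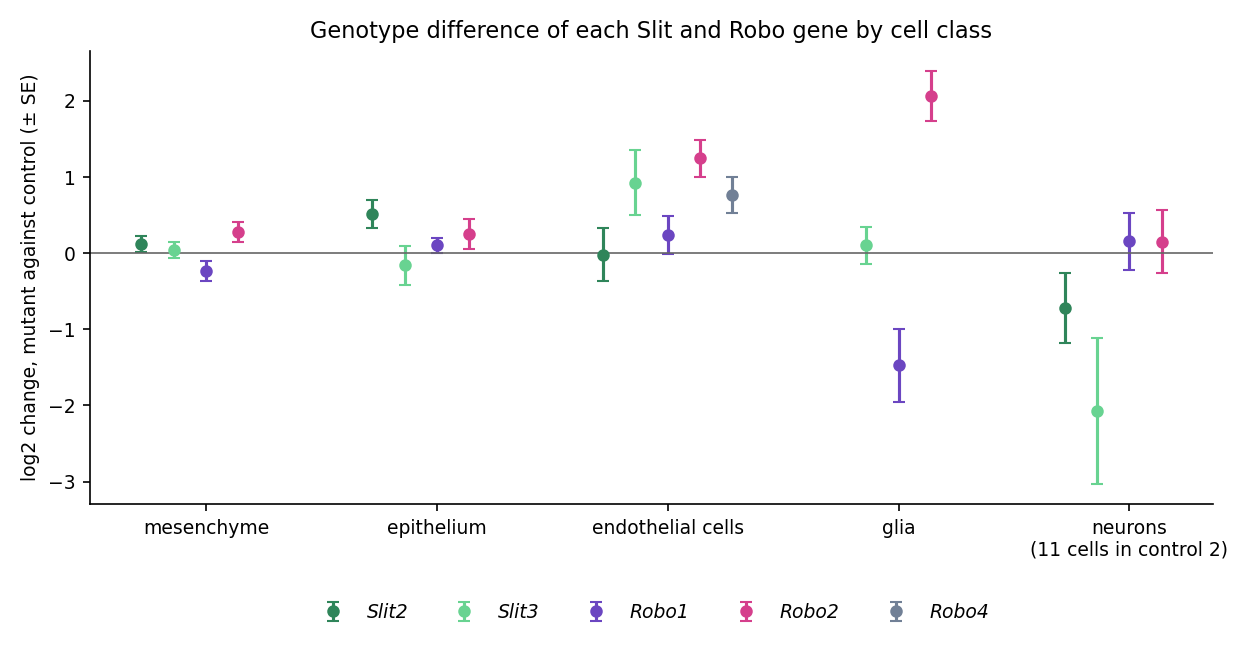
Log2 change of Slit2, Slit3, Robo1, Robo2 and Robo4 in mutants against controls, by cell class, from the edgeR fit on UMI sums of 2 control and 2 mutant libraries. Bars are standard errors derived from the F statistic of the test. Robo2 in glia (2.06) and in endothelium (1.24) lies farthest above 0 and Slit3 in neurons (-2.07) and Robo1 in glia (-1.47) farthest below, and none passes the adjusted threshold of 0.05.

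The wider pathway was read with a list of 40 genes for other ligands and co-receptors, heparan sulfate synthesis, effectors and receptor turnover. Between genotypes edgeR called 0 of the 40 in all cells, mesenchyme and epithelium, 0 of the 30 tested in glia and in endothelium and 0 of the 34 tested in neurons. The median log2 change of the list in mesenchyme was -0.00, as was that of all genes at 0.00. Between mesenchyme and neurons, 12 of 40 were higher in mesenchyme and 6 in neurons, against 22.6% and 17.8% of all genes. Between mesenchyme and glia, 12 were higher in mesenchyme and 9 in glia, against 13.9% and 8.98%. Between neurons and glia, 6 of 35 tested were higher in neurons and 7 in glia, against 18.7% and 16.7%.

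Nell2, the ligand of Robo3, was higher in glia than in mesenchyme: 363 and 96.0 CPM in control glia and 431 and 330.3 CPM in mutant glia, against 12.2 ± 1.7 CPM in mesenchyme. Its levels in neurons, endothelium and epithelium are not given here, so it is not shown to be particular to glia. The log2 difference between mesenchyme and glia was -4.53 ± 0.17 (edgeR adjusted p = 6.57e-151). The glial range of 96.0 to 431 CPM is wider than this p-value reflects. Dcc, the netrin receptor whose attraction Robo1 can silence, was at 443, 223, 229 and 212 CPM in the neurons, higher than in glia by 3.53 ± 0.44 (edgeR adjusted p = 2.46e-06) and than in mesenchyme by 0.63 (log2 of mesenchyme over neurons -0.63 ± 0.20, edgeR adjusted p = 0.00682). Ntn1, which encodes the netrin ligand, was higher in mesenchyme than in glia by 3.61 ± 0.49 (edgeR adjusted p = 5.2e-12). Sdc1 and Sdc2, cell-surface heparan sulfate carriers, were higher in mesenchyme than in neurons by 2.60 ± 0.38 and 1.68 ± 0.25. Hs2st1, a heparan sulfate sulfotransferase, was higher in glia than in mesenchyme (-1.82 ± 0.15) and than in neurons (-2.43 ± 0.25), with edgeR adjusted p of 1.46e-32 and 2.28e-07.

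The srGAP effectors did not share one distribution. Srgap1, a GTPase-activating protein that binds the Robo tail, was at 82.6 ± 10.8 CPM in mesenchyme but at 212 ± 27.2 in glia, 268 ± 75.0 in neurons and 252 ± 41.0 in endothelium. The log2 difference of mesenchyme was -1.33 ± 0.20 against neurons, -1.27 ± 0.16 against glia and -1.66 ± 0.11 against endothelium (edgeR adjusted p = 3.34e-09, 7.42e-15 and 2.04e-10). Srgap1 was thus lower in mesenchyme, where the means of Robo1 and Robo2 were highest, than in neurons, glia and endothelium. Neurons, with the highest Srgap1 mean of these, held Robo2 at 714 ± 224 CPM, which overlapped mesenchyme. Srgap2 was higher in mesenchyme than in neurons (0.98 ± 0.23, edgeR adjusted p = 1.99e-04), and Srgap3 was higher in mesenchyme than in endothelium (4.25 ± 0.32, 7.75e-10). Pak1, a kinase downstream of Rac1, was higher in neurons than in mesenchyme (-1.33 ± 0.25) and than in glia (2.83 ± 0.41), and Enah, a regulator of actin filaments, was higher in neurons than in glia (1.65 ± 0.24). Against endothelium, Unc5b (-3.24 ± 0.20) and Vasp (-2.15 ± 0.13) were lower in mesenchyme. Against epithelium, Sdc4 was lower in mesenchyme by 1.90 (log2 -1.90 ± 0.08) and Sdc2 higher by 2.24 ± 0.09.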

How the data were processed

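The authors deposited raw UMI counts per gene and cell, made with Cell Ranger against mm10. The submitters' processing notes give Cell Ranger 4 and Seurat 4.3.0, while the file headers give Cell Ranger 8.0.1. The 7 genes, the gene lists and the tests were chosen with earlier results of these data known, and the rule for calling a cell a class, the mesenchymal clusters and the fits within clusters were chosen after seeing the data. A barcode was kept if it had 500 genes or more and no more than 10% mitochondrial UMIs. A class needed at least 4 markers detected and a share of its list 0.1 above that of any other list. Clusters (scanpy 1.11.5, leidenalg 0.10.2, 2000 variable genes without the Slit and Robo genes, 40 components, 20 neighbours, resolution 1) were numbered 0 to 32, and were called mesenchymal where at least 80% of their cells were in that class. Scrublet's own threshold marked 0 to 3 barcodes per library and was not used; removing the highest-scoring 0.8% per 1000 barcodes was an alternative. Class sums of UMIs, 1 per library, entered edgeR 4.0.16 (R 4.3.3; filterByExpr, TMM, quasi-likelihood, threshold 0.05), with the library as a block between classes; fits were tested on simulated data, and DESeq2 1.42.0, other filters and leaving out each library were alternatives. Named were all members, Nell2, Ntn1, Dcc, Srgap1, Srgap2, Srgap3, any pathway gene called between genotypes and, per class contrast, the 3 pathway genes of smallest p in each direction. The mean is over libraries, and 1 marker, Trpc2, was not used here. Intervals cover counting error only.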

Additional observations from a re-analysis of the deposited data

Results flagged for a closer look

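Robo1 stood in opposite order in epithelium and glia. Its mean CPM in mutants over that in controls was 1.10 in the epithelium, with both mutants above both controls, as for 21.9% of genes. In glia it was 0.383, with both mutants below both controls, as for 13.9% of genes. The log2 change in the epithelium was negative with the stricter cell limits. The glial value rested on 47 UMIs in 1 cell of control 1, and the difference between the classes was not tested.

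Each of Slit2, Slit3, Robo1 and Robo2 had clusters with both mutants above both controls and clusters with both below, and these differences between clusters were not tested. For Slit2 there were 6 mesenchymal clusters above and 2 below, and 1 above and 1 below among the other 7 clusters with 20 cells in every library. For Slit3 there were 2 above and 2 below in the mesenchyme, and 1 above and 2 below elsewhere. For Robo1 there were 1 above and 3 below in the mesenchyme, and 2 above and 2 below elsewhere. For Robo2 there were 2 above and 2 below in the mesenchyme, and 5 above and 1 below elsewhere. Beside these counts, 21.3% of gene and cluster pairs of the mesenchyme had both mutants above and 14.1% both below, and 18.7% and 19.1% of those of the other clusters did.

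The 5 non-mesenchymal clusters with more Robo2 in both mutants were 2 and 9 (epithelium), 19 (endothelium), 22 (glia) and 28 (mural cells), and macrophages (cluster 21) had the opposite order. The mesenchyme list summed to 393 and 83.5 against 897 and 533 CPM in cluster 19. In cluster 28 it summed to 2570 and 2003 against 2995 and 3587 CPM. Cluster 21 had the opposite order, with 316 and 623 against 54.9 and 137 CPM. In clusters 2, 9 and 22 the libraries overlapped for the list. The part of these transcripts in the Robo2 order was not tested.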

How the results depend on the processing

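Glia had few cells, which limits what could be called. In simulated sums of glia 8.5% of 2-fold and 64.0% of 4-fold changes were recovered, against 62.5% and 96.5% in mesenchyme. The spread between libraries was set by hand, higher for glia than for mesenchyme, so the shares hold for that setting only. No other class was simulated. The alternatives that keep only cells with at least 1000 genes and at most 5% mitochondrial UMIs, or ask 1 more marker, were not run for the genotype test in glia, because they left fewer than 20 cells in a library, and mesenchymal clusters 10, 23 and 31 were not tested for the same reason.

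Between classes the number of called members was the same in every alternative run, except for mesenchyme against glia, where it was 3 of 4 with DESeq2, with doublets removed and with 1 more marker, and 3 to 4 when 1 library was left out, and for neurons against glia, where it was 5 without a filter on low counts. Between genotypes the number of called members stayed at 0 in all 10 alternatives for all cells and all 12 for mesenchyme. It became 1 in glia, endothelium and epithelium without a filter on low counts, and 1 in glia and endothelium with the replicate block. Leaving out 1 library gave 0 to 2 called members in glia, 0 to 2 in endothelium, 0 to 1 in epithelium, 0 to 1 in neurons and 0 to 1 for the interaction of class and genotype, for which doublet removal also gave 1. The genes called were Robo2 in glia and endothelium (adjusted p = 0.00208 without a filter and 0.0199 with the block in endothelium), Robo1 in glia without control 2, Slit3 in endothelium without control 2 (log2 1.71), Slit2 in epithelium (adjusted p = 0.0129 without a filter), and Slit3 in neurons (-3.38) and in the interaction (-3.25) without control 1 or with doublets removed (-4.37 in the interaction). The cause of these gains was not tested. The numbers of all genes called ranged over 0 to 410 in all cells, 0 to 710 in mesenchyme, 0 to 122 in glia, 0 to 114 in neurons, 4 to 124 in endothelium (8 in the reported fit), 0 to 622 in epithelium and 1 to 149 for the interaction (13 in the reported fit).

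Of 294 log2 changes of members between genotypes recomputed, 257 kept direction and side of the threshold, 13 passed it newly and 24 changed sign without being called. Of 206 between classes, 201 kept both and 5 lost the call. Equal makeup of the mesenchyme gave -0.022 for Robo2, -0.083 for Slit3 and -0.11 for Slit1. Keeping only the cells of the stricter limits gave -0.003118 for Slit3 over all cells, 0.13 for Slit2 in endothelium and -0.062 for Robo1 in epithelium. Slit2 in endothelium was 0.46 with doublets removed and 0.053 with 1 more marker. Leaving out 1 library at a time, the sign changed over these ranges: over all cells -0.15 to 0.19 for Slit3, -0.41 to 0.056 for Robo1 and -0.31 to 1.12 for Slit1; in mesenchyme -0.030 to 0.099 for Slit3 and -0.71 to 1.63 for Slit1. In glia it was -0.048 to 0.24 for Slit3, and in neurons -3.38 to 0.91 for Slit3 and -0.38 to 0.54 for Robo2. In endothelium it was -0.43 to 0.22 for Slit2 and -0.11 to 0.53 for Robo1, and in epithelium -0.46 to 0.021 for Slit3 and -0.014 to 0.52 for Robo2. The interaction ranged from -3.25 to 0.83 for Slit3, -0.52 to 0.21 for Robo2 and -2.84 to 8.81 for Slit1.

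The replicate numbers of the titles did not pair the samples: correlations of deviations between samples of the same number lay between -0.08 and 0.10 over the classes. The replicate numbers were treated as a number only, and with the replicate block Robo2 in glia had an edgeR adjusted p of 8.91e-05.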
